A study of Mus musculus with 6 samples.

Results

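The 44 genes described here are ATF4 and its best known targets: the transcription factors of the amino acid response, the proteins that slow translation and mTORC1, the enzymes and carriers that supply amino acids, and 12 cytosolic tRNA synthetases. They were listed by gene symbol for their place in the pathway, with earlier results of these data known, and all 44 were among the 24589 genes of the table, with 42 of them reaching the level needed for a test. RNA was sequenced from primary wild-type mouse CD8+ T cells (lymphocytes that kill infected and tumour cells), which had been activated through CD3 and CD28 in Click's medium with serum and glutamine. The cells then received either 20 µM TVA (trans-vaccenic acid, found in the fat of ruminants) or DMSO as control for 24 h, with 3 libraries per group. The labels give neither strain nor age, while the methods of the study describe primary T cells from the spleen and lymph nodes of young adult C57BL/6 mice. How many animals or cultures gave the libraries is not given in the sources used here, so the p-values measure the spread between libraries, which may be technical. Values are TPM, transcript abundances scaled for gene length and for the total of each library, so that levels can be compared between genes but sequencing depth is unknown.

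ATF4 is a transcription factor whose mRNA is translated more when the initiation factor eIF2 is phosphorylated, for example by the kinase GCN2 (Eif2ak4) when uncharged tRNA accumulates. Its own transcript level is therefore only part of its control. ATF4 then raises genes for amino acid uptake, asparagine, serine, glycine and proline synthesis, tRNA charging, and feedback regulators such as CHOP (Ddit3) and Trib3. In activated T cells the same programme is known to be switched on through mTORC1 to feed protein synthesis.

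ATF4 dimerises with C/EBP proteins and binds composite elements whose core is TTNCATCA. A match to these letters on either strand, from 250 bases before to 50 bases after a RefSeq start site (GRCm38.p6), was present in 13 of the 35 members with a promoter entry (37.1%). The same search found it in 4.51% of 27025 genes. The form TTGCATCA, which is counted within the first, was in 10 of the 35 (28.6%) and in 1.03% of all genes. The CREB element TGACGTCA was in 0 of the 35 and in 2.03% of all genes. The windows below are given because they show promoters that carry the element. Each runs 5′ to 3′ on the strand of the gene, with the 8 matching bases in capitals (TGATGCAA and TGATGAAA are matches on the other strand).
Atf3, chr1:191183426-191183453: cttctcgcacTTGCATCAccaagtccgc
Nupr1, chr7:126625563-126625590: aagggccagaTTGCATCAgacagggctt
Chac1, chr2:119351039-119351066: ttccctgccgTTGCATCActcctgccag
Trib3, chr2:152344029-152344056: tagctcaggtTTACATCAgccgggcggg
Asns, chr6:7693215-7693242: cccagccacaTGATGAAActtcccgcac
Pycr1, chr11:120643834-120643861: gccctgtgtaTGATGCAAtgcacaaggc
Slc1a4, chr11:20332700-20332727: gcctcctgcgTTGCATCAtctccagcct
Gars, chr6:55037961-55037988: ggctgcgctaTTTCATCAtgcaccgggc
Iars, chr13:49682127-49682154: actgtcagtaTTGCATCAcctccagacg
Tars, chr15:11399656-11399683: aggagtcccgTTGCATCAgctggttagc
Yars, chr4:129189896-129189923: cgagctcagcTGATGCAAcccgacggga
In Atf3 and Nupr1 the element began at the same distance from the start site, position -110. In Tars, Slc1a4, Iars and Yars it lay next to the start site, at positions -15, -4, 8 and 4. Vldlr also held a match.

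A control library stood nearer to the treated ones than to its own group. DMSO replicate 2 correlated at 0.996 with each TVA library over all genes tested and at 0.993 and 0.995 with the other controls (a description across genes, which are not replicates).

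After 24 h with TVA, 6 of the 42 genes tested were lower and 0 were higher (limma on log2(TPM + 1), Benjamini-Hochberg adjusted p under 0.05 over 10866 genes). The genes that fell were Atf3, Atf5, Nupr1, Ddit4, Sesn2 and Cth, and Nupr1 moved the most relative to its DMSO mean (-33.0%) and Cth the least (-12.3%). Before adjustment, 12 of the 42 had a p under 0.05, as did 3451 of all 10866 genes tested. Among all genes tested, 3.23% were called lower and 5.28% higher, against 14.3% and 0 of the 42. The median log2 change of the 42 genes was -0.014, which lay 0.053 below the median of all genes tested (0.039). The groups shared no range in 15 of the 42 genes, and in 38.6% of all genes tested. Of these, 10 were lower with TVA (23.8% of the 42, against 11.2% of all genes) and 5 were higher (11.9%, against 27.3%). The changes were small. No called gene reached 1.5-fold, and 28 of the 42 had a log2 change of less than 0.1 in either direction. The 6 calls depended on single libraries, and so did the calls over all genes. Without DMSO replicate 2, 9 genes were called, all lower, and without DMSO replicate 1, 6 were (5 lower, and Slc7a1 higher). Without DMSO replicate 3 there was 1 call (Atf3), and without TVA replicate 2 there was 1 (Nupr1). Without TVA replicate 1 or TVA replicate 3 there were 0. Of all 10866 genes, 925 were called with every library, and 945, 2242 and 294 without DMSO replicates 1, 2 and 3. Without TVA replicates 1, 2 and 3, the calls over all genes numbered 125, 102 and 113.

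**Figure D1:**
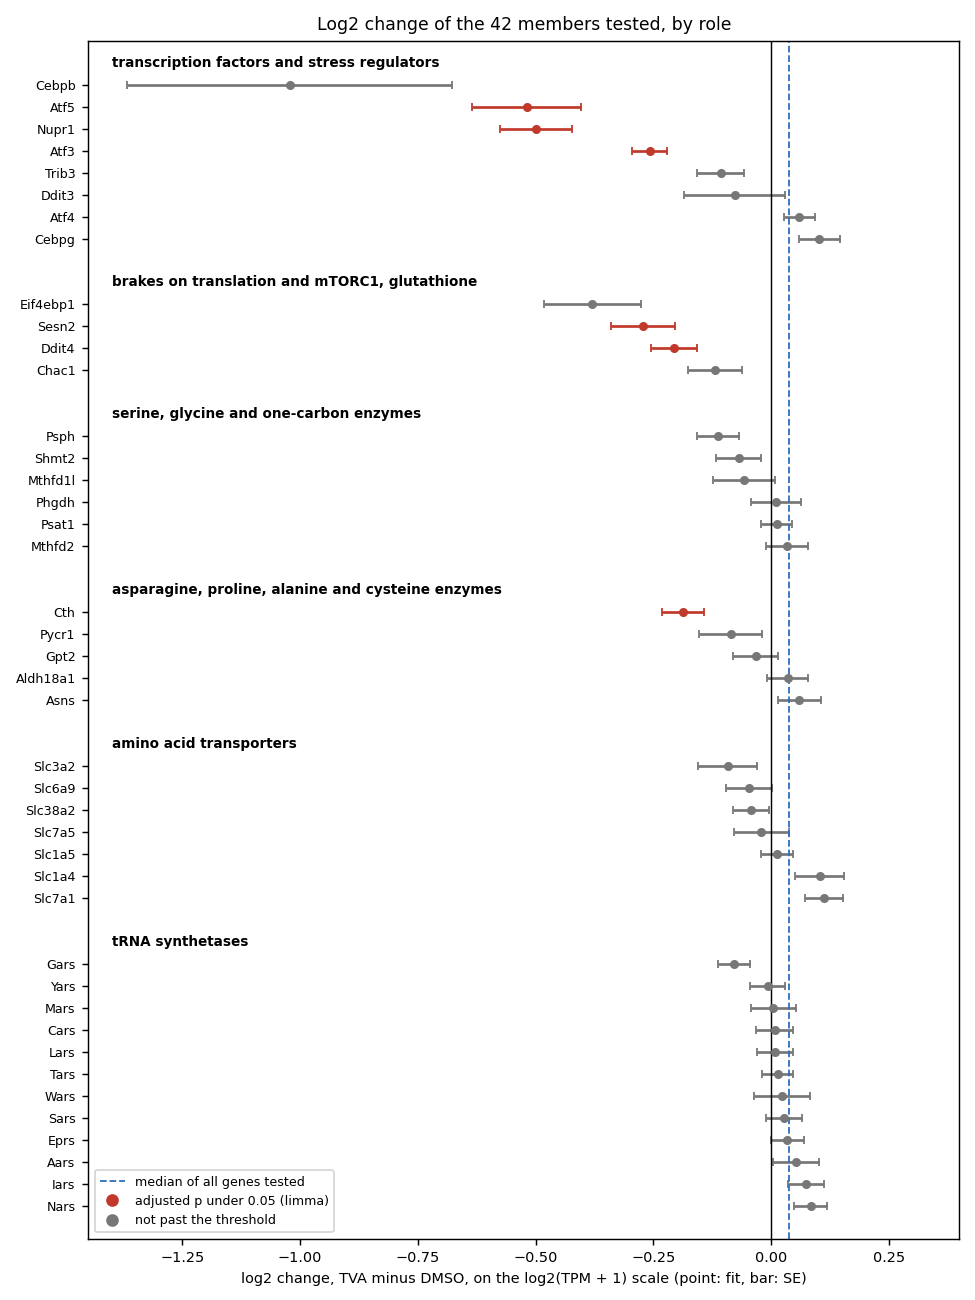
Log2 change (TVA minus DMSO, log2(TPM + 1) scale) of the 42 genes tested, grouped by role, as points with SE bars (n = 3 libraries per group). The 6 genes past the threshold, in red, all lie below 0 and belong to the regulators, the brakes on mTORC1 and, with Cth, the cysteine enzymes. The 12 tRNA synthetases cluster about 0.

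Of the 8 regulators tested, 3 were lower and 0 higher (3.23% and 5.28% of all genes tested). Atf4 was the most abundant gene of the list, with 732, 710 and 730 TPM in the 3 DMSO libraries and 758, 754 and 752 TPM in the TVA libraries. All TVA values were above all DMSO values, but the difference was small and did not pass the threshold (log2 change 0.06 ± 0.034 SE, limma adjusted p 0.25). Its dimer partner Cebpg likewise had non-overlapping, slightly higher values with TVA (28.9 ± 1.20 and 31.1 ± 0.577 TPM, SD, n = 3), with an adjusted p of 0.16.

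Atf3, a stress-induced repressor that ATF4 activates (chr1:191170296-191183333), had 97.1, 93.0 and 91.6 TPM under DMSO against 78.6, 78.0 and 78.4 TPM under TVA. The groups were well separated and the TVA libraries nearly equal. The fall was -0.26 on the log2 scale (SE 0.037, limma adjusted p 0.0121). It was past the threshold under 11 of 14 alternative settings and missed it when a TVA library was left out (adjusted p 0.064, 0.081 and 0.080 without replicates 1, 2 and 3).

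Nupr1, a small chromatin-associated stress protein (chr7:126623246-126625470), was a low transcript. Its values were 7.02, 7.83 and 7.74 TPM under DMSO against 4.67, 5.63 and 4.84 TPM under TVA, with no overlap (log2 change -0.50 ± 0.076 SE, limma adjusted p 0.0148). The call was kept under 10 of 13 alternatives and lost without DMSO replicate 3 (0.054), TVA replicate 1 (0.067) or TVA replicate 3 (0.080). Both Atf3 and Nupr1 were also called with the replicate number as a block, under which no other member was.

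Atf5, a relative of ATF4 under the same translational control (chr7:44812256-44816658), had 37.5, 26.1 and 34.1 TPM under DMSO against 22.6, 22.1 and 21.8 TPM under TVA. DMSO replicate 2 was the lowest control and lay close to the TVA libraries. The log2 change was -0.52 (SE 0.12, limma adjusted p 0.0386) and shrank to -0.29 when a GC trend was subtracted within each library (the GC correction, adjusted p 0.0129), with adjusted p over the alternatives from 3.6e-04 without DMSO replicate 2 (log2 change -0.67) to 0.15 without TVA replicate 2. The call was lost without DMSO replicate 3 (0.11), without any TVA library (0.11 to 0.15), under the replicate block (0.055) and when every gene above 0 TPM was tested (0.081). Exons of Atf5 overlap exons of Il4i1 and Nup62 on the opposite strand by 82 bases, and whether strand was used in quantification is not given in the sources used here.

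Cebpb, whose product is a C/EBP partner of ATF4, showed the widest control spread relative to its level. It had 20.1, 5.78 and 10.2 TPM under DMSO against 4.98, 4.83 and 4.50 TPM under TVA. The control libraries thus differed more among themselves than DMSO replicate 2 differed from TVA, and the log2 change of -1.02 (SE 0.35) had a limma adjusted p of 0.097. The size of the change varied widely, from -1.42 without DMSO replicate 2 (adjusted p 0.0063) to -0.60 without DMSO replicate 1 (0.083), and the GC correction left -0.28 (0.29). Its transcripts have the highest GC content of the list (67.2%), and its exons overlap those of Tmem189 on the other strand by 312 bases.

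Neither of the classical feedback genes passed the threshold. Ddit3, which encodes the pro-apoptotic factor CHOP, had 31.2, 26.3 and 22.1 TPM under DMSO against 24.6, 24.5 and 25.5 TPM under TVA. The control values enclosed those of TVA (log2 change -0.08, 95% interval -0.33 to 0.17, limma adjusted p 0.64). Trib3, a pseudokinase that restrains ATF4, had 35.5, 33.4 and 32.5 TPM under DMSO against 32.6, 31.3 and 30.0 TPM under TVA. These values overlapped at their edges (log2 change -0.11, 95% interval -0.22 to 0.0096, adjusted p 0.19). After the GC correction the change of Trib3 was -0.016 (limma adjusted p 0.83).

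All 4 genes that slow translation or mTORC1 or consume glutathione had lower means with TVA, and 2 of them passed the threshold. Of all 10866 genes tested, 4188 had a negative log2 change and 3.23% were called lower. Ddit4 encodes REDD1, which inhibits mTORC1 through the TSC complex (chr10:59949675-59951770). It had 267, 239 and 265 TPM under DMSO against 220, 223 and 224 TPM under TVA, without overlap (log2 change -0.21 ± 0.049 SE, limma adjusted p 0.0448). This was called under 5 of 14 alternatives and not after a correction for GC content (log2 change -0.13, adjusted p 0.12), nor without DMSO replicate 1 (0.058), DMSO replicate 3 (0.11) or any TVA library (0.13 to 0.17). The change was -0.26 (0.0036) on leaving out DMSO replicate 2, the lowest control. The replicate block (0.075), the fit without the variance trend (0.063) and the test of every gene above 0 TPM (0.075) ended it too.

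Sesn2, a leucine-binding inhibitor of mTORC1 (chr4:132492804-132510456), had 79.3, 67.4 and 66.5 TPM under DMSO against 59.2, 57.6 and 58.7 TPM under TVA. DMSO replicate 1 stood above the other controls, and all controls stood above all TVA libraries. The log2 change was -0.27 (SE 0.067) with a limma adjusted p of 0.0492, just under the threshold. After the GC correction it was -0.18 (0.0145). Leaving out DMSO replicate 2 gave 0.0233, leaving out DMSO replicate 3 gave 0.069, and leaving out any TVA library gave 0.13 to 0.18. The call was also lost under the replicate block (0.065), without the variance trend (0.064) and when every gene above 0 TPM was tested (0.089).

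Eif4ebp1, the repressor of cap-dependent translation that mTORC1 inactivates, had 265, 192 and 231 TPM under DMSO against 172, 178 and 174 TPM under TVA. Again DMSO replicate 2 was the control nearest to TVA. Its log2 change of -0.38 (SE 0.10) missed the threshold (limma adjusted p 0.059) and passed it without DMSO replicate 2 (0.0020), after median-of-ratios scaling and after the GC correction (0.043). Chac1, which degrades glutathione and carries the element at position -193, had 30.7, 26.6 and 27.9 TPM under DMSO against 26.7, 25.6 and 25.8 TPM under TVA. DMSO replicate 2 fell within the TVA range, and the change did not pass (-0.12 ± 0.057 SE, adjusted p 0.19), nor did it without that library (-0.16, 0.075) or without DMSO replicate 1 (-0.06, 0.32).

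**Figure D2:**
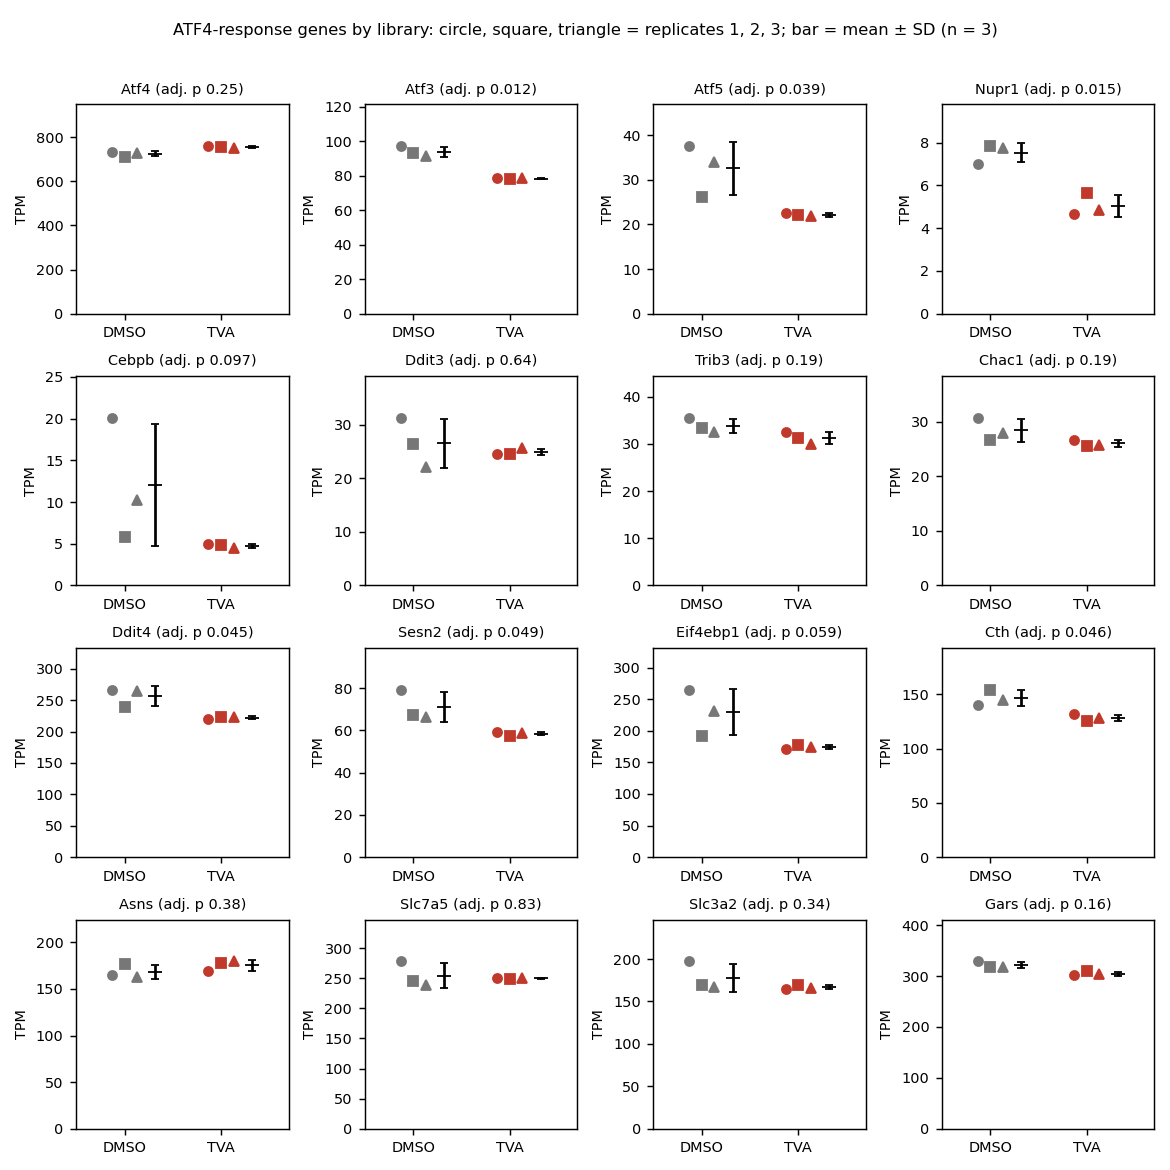
TPM of 16 genes in each library (circle, square and triangle for replicates 1, 2 and 3; grey for DMSO, red for TVA; black bars for mean ± SD, n = 3; every axis starts at 0). Atf3, Atf5, Nupr1, Cebpb, Ddit4, Sesn2, Eif4ebp1, Cth and Gars are lower in all 3 TVA libraries than in every DMSO library. Of these, Atf5, Cebpb, Ddit4 and Eif4ebp1 have the square of DMSO replicate 2 as the control nearest to TVA.

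The enzymes that make serine, glycine and one-carbon units were abundant, and 0 of 6 passed the threshold. Over all genes tested, 8.51% were called in either direction. Phgdh, Psat1 and Psph catalyse the steps from a glycolytic intermediate to serine. Phgdh had 474 ± 32.6 TPM with DMSO and 477 ± 6.37 TPM with TVA (SD, n = 3), and Psat1 had 366 ± 6.67 and 369 ± 2.11 TPM. The last enzyme, Psph, had non-overlapping lower values with TVA (138, 125 and 129 against 121, 120 and 120 TPM), and its log2 change was -0.11 ± 0.044 SE (limma adjusted p 0.13). It was called only without DMSO replicate 2 (0.0499), and 452 bases of its exons overlap a Cct6a transcript on the other strand.

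The mitochondrial folate enzymes Shmt2 (413 ± 24.3 and 393 ± 4.27 TPM), Mthfd2 (273 ± 14.1 and 279 ± 4.35 TPM) and Mthfd1l (59.95 ± 5.87 and 57.4 ± 0.509 TPM) differed by less than the spread of the controls. Their limma adjusted p-values were 0.35, 0.63 and 0.57.

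Asns, the asparagine synthetase gene and a standard readout of ATF4, had 165, 176 and 163 TPM under DMSO against 169, 177 and 180 TPM under TVA. The groups overlapped (log2 change 0.06, 95% interval -0.044 to 0.16, limma adjusted p 0.38). The proline enzymes Aldh18a1 (0.04) and Pycr1 (-0.09) and the alanine enzyme Gpt2 (-0.03) did not pass either, with adjusted p-values of 0.60, 0.40 and 0.66.

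Cth was the exception among the enzymes. It encodes cystathionine gamma-lyase, which releases cysteine in the last step of transsulfuration (chr3:157894248-157925081). It had 140, 154 and 145 TPM under DMSO against 132, 126 and 128 TPM under TVA, and the log2 change was -0.19 ± 0.045 SE (limma adjusted p 0.0459). Here DMSO replicate 2 was the control farthest from TVA, and the GC content of the transcripts was the lowest of the list (42.9%). Without that library the change was -0.15 (adjusted p 0.0373), and after the GC correction it was -0.27 (0.0117). The call was lost under the replicate block (0.085), without the variance trend (0.064) and when every gene above 0 TPM was tested (0.071). It was also lost on leaving out DMSO replicate 3 (0.089) or any TVA library (0.11 to 0.19). Cbs, the preceding enzyme of the pathway, stayed under the level for testing at 0.80, 0.92 and 0.71 TPM under DMSO against 0.70, 0.59 and 0.61 TPM under TVA. Vldlr, a lipoprotein receptor induced by ATF4, was the other untested gene, with 0.41 to 0.55 TPM over all 6 libraries.

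Of the 7 amino acid carriers, 0 passed (8.51% of all genes tested were called in either direction). The leucine transporter is a pair of chains, LAT1 (Slc7a5) and its partner 4F2hc (Slc3a2). Slc7a5 had 278, 246 and 239 TPM under DMSO against 251, 249 and 250 TPM under TVA. Slc3a2 had 197, 170 and 168 TPM under DMSO against 165, 169 and 166 TPM under TVA. In both genes DMSO replicate 1 was the high value and the other controls lay near or among the TVA libraries (log2 changes -0.02 and -0.09, limma adjusted p 0.83 and 0.34). Without DMSO replicate 1 the changes were 0.046 for Slc7a5 and -0.017 for Slc3a2 (adjusted p 0.32 and 0.72).

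Slc7a1, the arginine and lysine carrier, was the only carrier with non-overlapping groups. It was higher, at 117, 112 and 109 TPM under DMSO against 119, 123 and 122 TPM under TVA (log2 change 0.11 ± 0.040 SE, limma adjusted p 0.11), and passed only without DMSO replicate 1 (0.045). The glutamine carrier Slc1a5 had 374 ± 6.59 and 377 ± 1.74 TPM (SD, n = 3). Its relative Slc1a4, with the element at position -4, had 20.5 ± 1.10 and 22.1 ± 0.724 TPM. Adjusted p-values were 0.82 and 0.21, and 0.46 and 0.53 for the amino acid carrier Slc38a2 and the glycine carrier Slc6a9.

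The 12 tRNA synthetases, which charge tRNA with alanine (Aars), cysteine (Cars), glycine (Gars), serine (Sars), tryptophan (Wars), asparagine (Nars), methionine (Mars), glutamate and proline (Eprs), threonine (Tars), isoleucine (Iars), leucine (Lars) and tyrosine (Yars), had the smallest changes of the role groups (median absolute log2 change 0.026). None passed the threshold, against 8.51% of all genes tested. Mean levels with DMSO ran from 82.4 TPM (Cars) to 322 TPM (Gars). Their median log2 change was 0.019, or 0.020 below that of all genes tested, and single genes ran from -0.08 (Gars) to 0.08 (Nars). The sum of the 12 was 1894, 1866 and 1817 TPM under DMSO against 1857, 1901 and 1891 TPM under TVA, so the groups overlapped. The 95% intervals of the log2 change lay between -0.16 and 0.17 for every one of the 12. In linear terms no interval went below 0.897-fold (Gars) or above 1.12-fold (Aars). Whether single synthetases sat above or below 0 depended on scaling: 10 of 12 were positive as deposited, 7 after quantile normalization and 3 after median-of-ratios scaling.

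Gars was the most abundant synthetase of the 12, with 329, 319 and 318 TPM under DMSO against 302, 309 and 303 TPM under TVA. These values did not overlap, but the change of -0.08 (SE 0.034) had a limma adjusted p of 0.16 and passed only after the GC correction (-0.13, 0.034). Nars (298 ± 5.08 and 316 ± 5.80 TPM) and Iars (148 ± 4.52 and 156 ± 2.48 TPM) had non-overlapping higher values with TVA, with adjusted p-values of 0.14 and 0.21. In Aars, 1326 exon bases are shared with Exosc6 on the same strand, so its value depends on how such reads were assigned.

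The 8 cytosolic synthetases outside the list (Dars, Farsa, Farsb, Hars, Kars, Qars, Rars and Vars) also had 0 calls, with a median log2 change of 0.035 and a range from -0.16 to 0.11. Of the 17 mitochondrial synthetases none was called either (median -0.019, range -0.25 to 0.15), while 8.51% of all genes tested were. The 3 scaffold proteins of the multisynthetase complex ran from -0.01 to 0.02. No test of the difference between the lists was made.

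**Figure D3:**
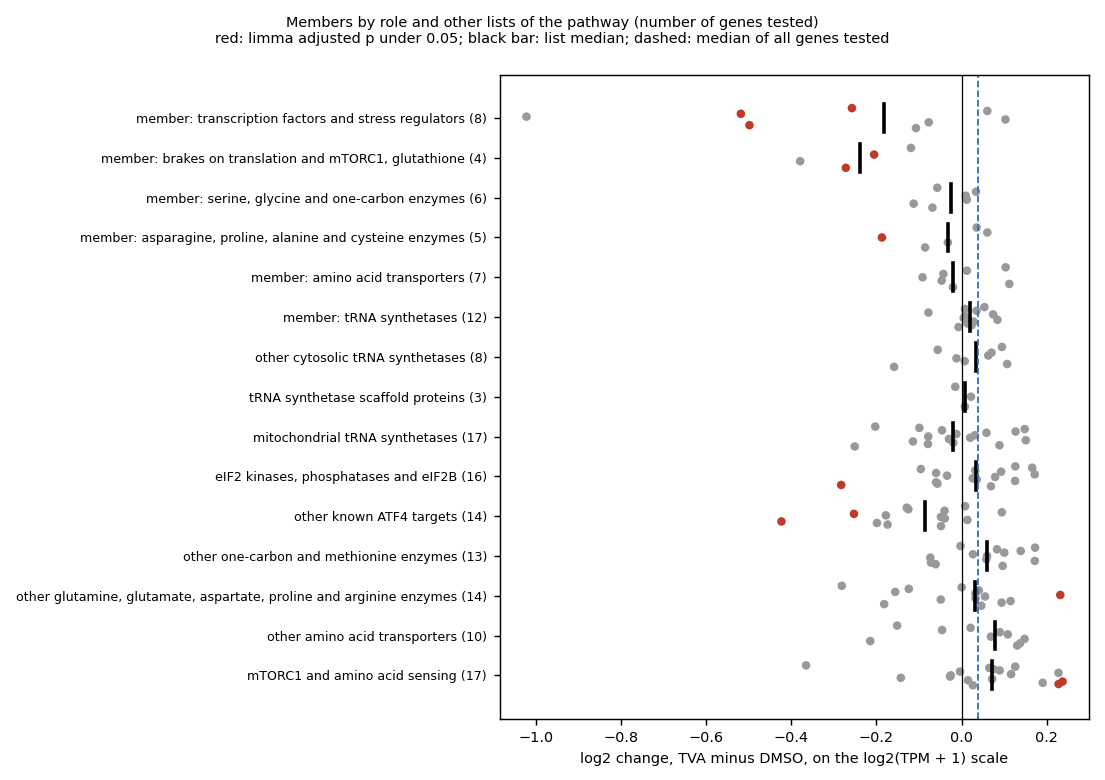
Log2 change (TVA minus DMSO, log2(TPM + 1) scale) of each gene tested in the 6 role groups of the list and in 9 other lists of the pathway. Red points are genes with an adjusted p under 0.05, black bars are list medians and the dashed line is the median of all genes tested. The regulators, the brakes and the other known ATF4 targets have the lowest medians, and the synthetase medians lie within 0.06 of the dashed line.

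Upstream of ATF4, the kinase gene Eif2ak4 (GCN2) had 9.42 ± 0.287 TPM with DMSO and 9.65 ± 0.410 TPM with TVA (SD, n = 3; log2 change 0.03, limma adjusted p 0.70). Among 16 genes of eIF2, its kinases, phosphatases and exchange factor, 1 was lower and 0 higher (8.51% of all genes were called in either direction). The one that fell was Ppp1r15a, which encodes GADD34, the stress-induced subunit that dephosphorylates eIF2. It had 55.7, 49.0 and 48.6 TPM under DMSO against 39.7, 43.3 and 42.4 TPM under TVA (log2 change -0.28 ± 0.062 SE, adjusted p 0.0371), and leaving out DMSO replicate 3 (0.063) or any TVA library (0.12 to 0.13) ended the call. It was kept under 8 of 14 alternatives, and was also lost with the replicate block and when every gene above 0 TPM was tested.

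Of 14 further ATF4 targets tested, 2 were lower, 0 higher and 11 had a negative log2 change (median -0.087). Over all genes tested 3.23% were called lower, and 4188 of 10866 had a negative change. Sqstm1, the autophagy receptor p62, fell from 193, 157 and 178 TPM to 130, 130 and 131 TPM (log2 change -0.42 ± 0.070 SE, limma adjusted p 0.0172). It is also a target of NRF2. Lonp1, a mitochondrial protease, fell from 154, 133 and 135 TPM to 119, 116 and 118 TPM (-0.25 ± 0.058 SE, 0.0423). Sqstm1 was called under 10 and Lonp1 under 7 of 14 alternatives. Both lost their calls without DMSO replicate 3 (0.059 and 0.072) and without any TVA library (0.081 to 0.17). Lonp1 also lost its call with the replicate block, without the variance trend and when every gene above 0 TPM was tested.

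Among the listed genes outside the 44, 3 rose. Glul, glutamine synthetase, rose from 37.9, 40.5 and 38.4 TPM to 43.6, 46.5 and 47.6 TPM (log2 change 0.23 ± 0.048 SE, limma adjusted p 0.0325). It was the only one of 14 further enzymes of glutamine, glutamate, aspartate, proline and arginine metabolism to pass. Among all genes tested, 8.51% were called, and 5.28% called higher. Sesn1, the relative of Sesn2 that p53 and FOXO control, rose from 15.1, 14.9 and 14.9 TPM to 17.7, 17.7 and 18.2 TPM (0.24 ± 0.041 SE, 0.0189), in the direction opposite to Sesn2. Tsc1, a subunit of the complex through which REDD1 acts, rose from 11.5, 12.5 and 11.2 TPM to 13.5, 13.9 and 14.3 TPM (0.23 ± 0.055 SE, 0.0471).

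The Glul, Sesn1 and Tsc1 calls were lost without DMSO replicate 3 (0.082, 0.054 and 0.11) and without any TVA library (0.067 to 0.18), and that of Tsc1 also without DMSO replicate 1 (0.064). They were called under 6, 9 and 5 of 14 alternatives. After median-of-ratios scaling Glul and Tsc1 missed the threshold (0.054 and 0.072). They also missed it after quantile normalization and when every gene above 0 TPM was tested. None of the 3 was called with the replicate block. Mtor itself had 14.8 ± 0.911 and 14.8 ± 0.531 TPM (SD, n = 3; adjusted p 0.97). No gene passed among 13 further one-carbon and methionine enzymes or 10 further amino acid carriers. Among 17 mTORC1 and sensing genes only Sesn1 and Tsc1 did. Over all genes tested, 5.28% were called higher and 8.51% in either direction.

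Genes that fell were found both with and without the element. Over all genes tested, 3.23% were called lower. Of the 12 tested genes with a match, 2 were lower (Atf3 and Nupr1), and of the 21 tested genes with a promoter entry and no match, 3 were (Atf5, Ddit4 and Sesn2). Median log2 changes were -0.04 in both sets. The windows of Asns, Chac1, Tars and Iars hold the element as well, and those genes did not pass.

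The control libraries differed among themselves. DMSO replicate 1 had the highest control value in 33 of the 42 genes (78.6%; 49.7% of all genes tested), and the SD of the TVA libraries was below that of the DMSO libraries in 38 of them (90.5%; 73.3% of all genes tested). On the path from the TVA mean to the mean of DMSO replicates 1 and 3, DMSO replicate 2 lay 16.5% of the way for Cebpb, 27.3% for Eif4ebp1, 33.9% for Atf5, 40.0% for Ddit4 and 65.2% for Sesn2. For Atf3, Nupr1 and Cth it lay 92.4%, 116% and 176% of the way, with the other controls or beyond them.

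**Figure D4:**
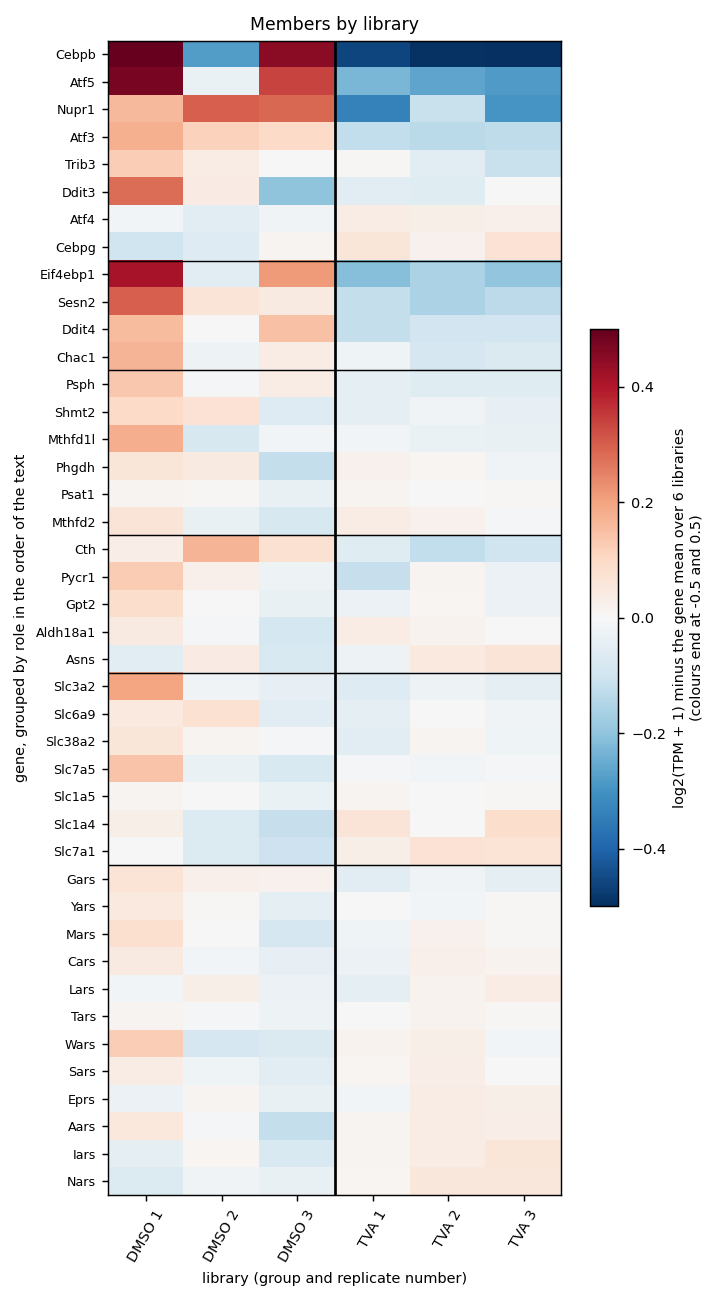
Deviation of log2(TPM + 1) from the gene's mean over 6 libraries for the 42 genes, by role, with red above and blue below the mean (colours end at -0.5 and 0.5). The first column, DMSO replicate 1, is red for most genes, Cebpb, Atf5 and Eif4ebp1 are pale or blue in DMSO replicate 2, and the synthetases at the bottom are pale throughout.

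GC content moved with the change. Across all genes tested GC content and log2 change were correlated at -0.40 (Spearman), and across the 42 genes at -0.46 (n = 42 genes from the same 6 libraries, given as a description). Control libraries differed in the same respect: the difference of DMSO replicate 1 from DMSO replicate 2 correlated at 0.50 with GC content over all genes tested, and that of DMSO replicate 3 from DMSO replicate 2 at -0.058. The median GC content was 56.5% for the 6 genes that fell and 53.0% for the others tested. With a GC curve subtracted within each library, 534 of all 10866 genes were called lower and 590 higher (351 and 574 before). Of the 42 members, 7 were then called lower and 0 higher. Atf3, Atf5, Nupr1, Sesn2 and Cth were among them, with smaller falls for Atf5 (-0.29 from -0.52) and Sesn2 (-0.18 from -0.27) and a larger one for Cth (-0.27 from -0.19). Eif4ebp1 and Gars were added, and Ddit4 was not called.

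**Figure D5:**
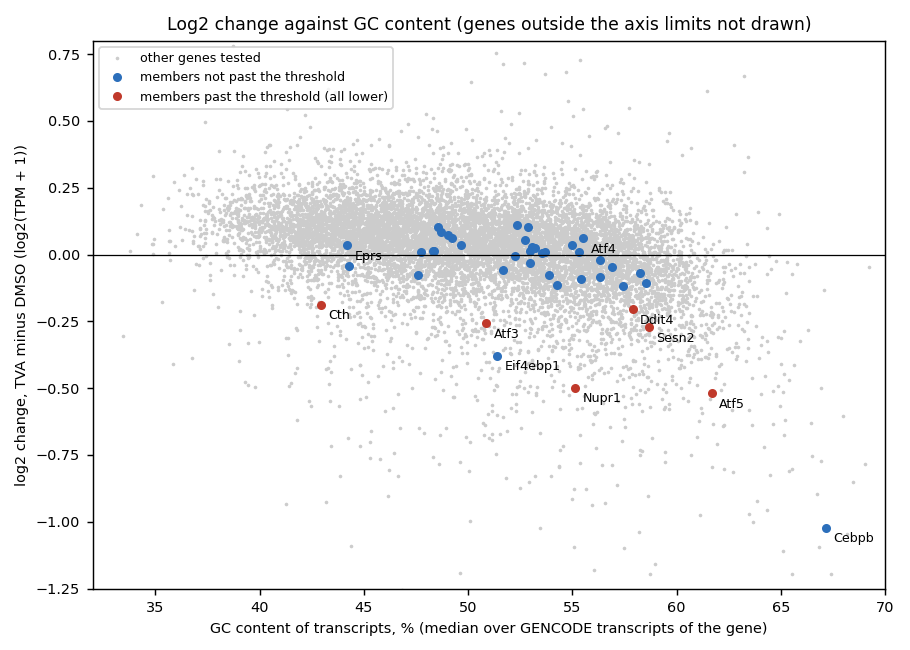
Log2 change (TVA minus DMSO, log2(TPM + 1) scale) against GC content of the transcripts (%) for the 42 genes over all other genes tested (grey). Genes that fell (red) range from Cth at 42.9% to Atf5 at 61.7%, and Cebpb (67.2%) lies at the high end of both GC content and fall.

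The markers of CD8 T cells were high in each library (Cd3d, Cd3e, Cd3g, Cd8a and Cd8b1 summed to 1516 to 1638 TPM with DMSO and 1756 to 1787 TPM with TVA), and Cd3g was called higher (log2 change 0.28, limma adjusted p 0.0063). Of 6 myeloid markers, the sum was 40.7 to 44.4 TPM with DMSO and 54.2 to 55.8 TPM with TVA, 1 was called higher (Lyz2) and 0 lower, while Csf1r and Adgre1 reached at most 1.28 and 0.89 TPM. None of the markers was at 0 in every library. The sums were 11.3 to 14.9 and 10.7 to 11.0 TPM for 5 B cell markers, and 65.1 to 67.8 and 55.2 to 59.6 TPM for 3 platelet markers, 2 of which were lower (Ppbp and Itga2b). For 4 CD4 T cell markers they were 15.1 to 16.2 and 12.2 to 14.2 TPM, with Cd40lg lower, and for 4 NK cell markers 36.2 to 42.4 and 45.0 to 48.3 TPM. The 5 red cell markers summed to 37.7 to 61.3 and 48.6 to 58.7 TPM, with Hbb-bt lower. The part of these cells in the results was not tested, and in bulk RNA fewer cells of a type and less RNA per cell cannot be told apart.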

How the data were processed

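The authors deposited one table of TPM per gene symbol for 6 libraries, with 2 decimals. STAR, RSEM and mm10 are named in the submitters' processing notes, without versions; the annotation is not given in the sources used here. Columns were matched to libraries by the name in each library's description. Genes with at least 1 TPM in at least 3 libraries were tested on log2(TPM + 1), a scale that understates changes of low genes, with limma 3.58.1 in R 4.3.3 (group only, variance trend, two-sided, Benjamini-Hochberg adjustment, threshold 0.05). TPM keeps no trace of depth. The members, their role groups and the other lists were chosen with earlier results of these data known. Values in every library are given for members past the threshold and for Atf4, Ddit3, Atf3, Trib3, Chac1, Sesn2, Asns, Slc7a5 and Slc3a2; those given for other genes (Cebpb, Eif4ebp1, Psph, Slc7a1, Gars, Cbs) were added after their values were seen. Other listed genes are named where they passed, and Eif2ak4, Ppp1r15a and Mtor in any case. Alternatives comprised another pseudocount (0.1), testing every gene above 0 TPM, testing only genes averaging 10 TPM or more, scaling by median-of-ratios or quantiles, no variance trend, the replicate number as a block, each library left out in turn and a minimum of 1.5-fold. A GC correction (loess, span 0.5, within each library) was chosen after seeing the data. The 14 alternatives counted for single genes include this correction and leave out the minimum of 1.5-fold. GC content is the median over GENCODE vM21 transcripts, available for 97.4% of genes tested and all 42 members. Promoters and coordinates are from RefSeq (GRCm38.p6, the assembly of mm10). Windows were searched for TTNCATCA and TGACGTCA on both strands, and not every match is reported here. The fit was tested on simulated data. Figures were drawn with matplotlib 3.10.9.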

Additional observations from a re-analysis of the deposited data

How the results depend on the processing

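Members called lower numbered 6, and 2 when every gene above 0 TPM was tested, 3 without the variance trend, 2 with the replicate block, 0 with a minimum of 1.5-fold and 0 to 9 with a library left out. Members called higher numbered 0, and 0 to 1 with a library left out. Over all genes, 925 were called, and 494 when every gene above 0 TPM was tested, 608 when only genes averaging 10 TPM were tested, 218 with the replicate block, 88 with a minimum of 1.5-fold and 102 to 2242 with a library left out. Of all calls 62.1% were higher, against 35.4% with median-of-ratios scaling, 46.1% with quantile normalization, 42.7% with the block and 52.5% after the GC correction. Genes of the other lists called numbered 6, and 2 when every gene above 0 TPM was tested, 1 with the replicate block, 12 after the GC correction, 0 with a minimum of 1.5-fold and 0 to 21 with a library left out. The median of the members relative to all genes, -0.053, was -0.023 when every gene above 0 TPM was tested and -0.078 to -0.030 with a library left out. Why the numbers moved under these settings was not tested. The deviations of same-numbered libraries correlated at 0.16, 0.035 and -0.077. Libraries of different numbers were not compared in this way, and whether same-numbered libraries share an animal or day was not tested.

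Values near 0 changed sign, none of them past the threshold. After median-of-ratios scaling, which moved the median of all genes from 0.039 to 0.0043, log2 changes were -0.028 for Phgdh, -0.026 for Psat1, -0.0038 for Mthfd2, -0.0021 for Aldh18a1, -0.025 for Slc1a5, -0.030 for Cars, -0.0095 for Sars, -0.014 for Wars, -0.033 for Mars, -0.0027 for Eprs, -0.024 for Tars, -0.029 for Lars and -0.0021 for Eif2ak4. After quantile normalization they were -0.014 for Psat1, -0.0095 for Slc1a5, -0.0020 for Cars, -0.017 for Mars and -0.016 for Lars. After the GC correction they were -0.033 for Psat1, 0.015 for Shmt2, -7.1e-05 for Mthfd2, 0.026 for Slc7a5, 0.0088 for Slc6a9, -0.036 for Eprs, -0.032 for Tars and -0.041 for Lars. With a library left out they ran from -4.7e-05 to 0.067 for Aldh18a1, -0.011 to 0.031 for Cars, -0.20 to 0.043 for Ddit3, -0.059 to 0.0041 for Gpt2, -0.0089 to 0.032 for Lars, -0.036 to 0.046 for Mars, -0.11 to 0.019 for Mthfd1l, -0.048 to 0.043 for Phgdh, -0.0029 to 0.022 for Psat1, -0.0018 to 0.023 for Slc1a5, -0.064 to 0.046 for Slc7a5, -0.013 to 0.091 for Wars, -0.031 to 0.015 for Yars and -0.047 to 0.036 for Mtor. Of 585 values of members under alternatives, 501 kept direction and side of the threshold, 35 fell short of it, 7 newly passed it and 42 changed sign. TPM values hold no depth, and its limits are unknown.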
